A study of Mus musculus with 2 samples.

Results

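Complement components and regulators were followed across the cells of mouse lung organoids grown with or without interleukin 1β (IL-1β). The 6 genes C3, C4b, C2, Cfb, Serping1 and Cd55 were taken by their symbols from the 27998 genes counted in both libraries. The set was chosen with earlier results of these data known. Complement is a cascade of plasma proteins that tags microbes and injured cells. The classical and lectin pathways cleave C4 and then C2, the alternative pathway pairs C3b with factor B, and both routes end in enzymes that cleave C3, the component on which all pathways meet. The C1 inhibitor encoded by Serping1 restrains the proteases that start the cascade, and the membrane protein CD55 takes apart the C3-cleaving enzymes on the cell's own surface. The liver supplies most circulating complement, and lung epithelial cells and fibroblasts are known to make components locally.

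The organoids were started from AT2 cells, the surfactant-producing stem cells of the alveolus. These were isolated from tamoxifen-treated C57BL/6 mice carrying Sftpc-CreERT2;R26RTomato, in which a Cre recombinase driven by the AT2 gene Sftpc labels the cells with a red reporter, from animals of 6 to 10 weeks. The cells were cultured in gel with lung stromal cells that had themselves been grown in culture beforehand. One group of organoids received PBS (control) and the other IL-1β, an inflammatory cytokine, at 10 or 20 ng/mL (the sources differ), and cells were collected after 2 weeks or on day 21 (the sources differ). Each condition was 1 droplet library, so that no difference between conditions has a replicate check and no test between conditions was possible.

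The control library held 2101 cells with 33965848 UMIs (unique transcript tags) and the IL-1β library 3066 cells with 41220175 UMIs. The median cell had 14613 UMIs in control and 11496.5 in IL-1β. After the cell cutoffs, 5139 cells were kept, and 11 cell barcodes occurred in both libraries. Clusters were divided by marker genes into epithelial cells (1288 control, 2583 IL-1β) and stromal cells (793 control, 475 IL-1β). Within the epithelium, clusters were called AT2-like (913 control, 1931 IL-1β), AT1-like (255 and 424; AT1 cells are the flat gas-exchange cells) or DATP-like (33 and 175; damage-associated transient progenitors, a Krt8-high state between AT2 and AT1). The AT2-like cells of the control included 89 of cluster E7, whose 10 leading genes began with the airway gene Scgb1a1, held Cyp2f2 and had Etv5 as the 1 AT2 marker. Cluster E1, which held 810 of the others, stood at 134.5 CPM for C3, 2.04 for Cfb and 50.7 for Cd55. All 12 epithelial clusters drew at least 95% of their cells from 1 library, so that cluster and condition cannot be told apart. Of the 10 stromal clusters, 8 also drew at least 95% of their cells from 1 library. In most of the stroma, too, cluster and condition cannot be told apart. The AT1-like cells of the control were mostly cluster E5 and those of the IL-1β library mostly cluster E4, whose 10 leading genes held the DATP markers AW112010 and Cldn4 beside the AT1 markers Hopx and Akap5. The DATP-like cells were mostly cluster E10 in control and E6 in IL-1β.

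A level below is the summed UMI count of a gene in a class, divided by all UMIs of that class and multiplied by 1000000 (counts for each 1000000, CPM), and it has an exact Poisson 95% interval. A ratio between the libraries or the cell kinds has an exact binomial 95% interval, and a gene counted as higher or lower when the ratio was at least 2 or at most 0.5 and the gene had at least 100 UMIs over both sides. All these intervals cover counting error only. Transcripts that mark one kind of cell were also counted in the other kind, and their level there is taken as the background. Of 8 stromal markers, 7 (Col1a1, Col1a2, Col3a1, Pdgfra, Pdgfrb, Vim and Dcn) stood in epithelial cells at 1.32% to 2.55% of their stromal level in control and at 1.66% to 2.59% in IL-1β. The eighth, Sparc, stood at 23.8% and 13.4%. In control its level was 3280 CPM in AT1-like cells, 284 in AT2-like cells and 3657 in stromal cells. In IL-1β these levels were 1927, 219 and 4010. Sparc was therefore not used as a measure of background. In the other direction, 9 AT2 markers stood in stromal cells at 3.57% to 20.6% of their epithelial level in control and at 5.55% to 24.7% in IL-1β. Of 8 immune markers in epithelial cells, Cd68 was at 8.13 CPM in control and 40.5 in IL-1β, while the other 7 were lower in IL-1β, with Tyrobp at 4.27 and 0.064, and Adgre1, C1qa, C1qb and C1qc at 0. The summed level was 30.1 and 42.0 CPM, higher in IL-1β through Cd68 alone. Its part in the results was not tested, other than by leaving out the 4 cells with at least 10 UMIs of the C1q genes.

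In epithelial cells, 4 of the 6 complement genes were at least 2-fold higher in the IL-1β library (C2, Cfb, C3 and Serping1, the last at 2.74% and 2.60% of its stromal level) and 0 were lower. Among all 11060 genes with enough UMIs, 6.13% were at least 2-fold higher and 3.7% were at least 2-fold lower. The median log2 ratio of the 6 genes was 1.70, beside 0.06 over all genes. Because the 6 genes were chosen with earlier results of these data known, these values describe the set and do not test it. In stromal cells, 2 of the 6 (C2 and Serping1) were at least 2-fold higher and 0 were lower, where 3.6% of 10060 genes were higher and 10.4% were lower. The median of all genes in stromal cells was shifted by -0.33 on the log2 scale, and that of the complement genes was 0.24. With size factors that set this median to 0, the counts over all genes went from 362 higher and 1045 lower to 543 higher and 599 lower, and C2 and Serping1 were still the members counted.

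**Figure D1:**
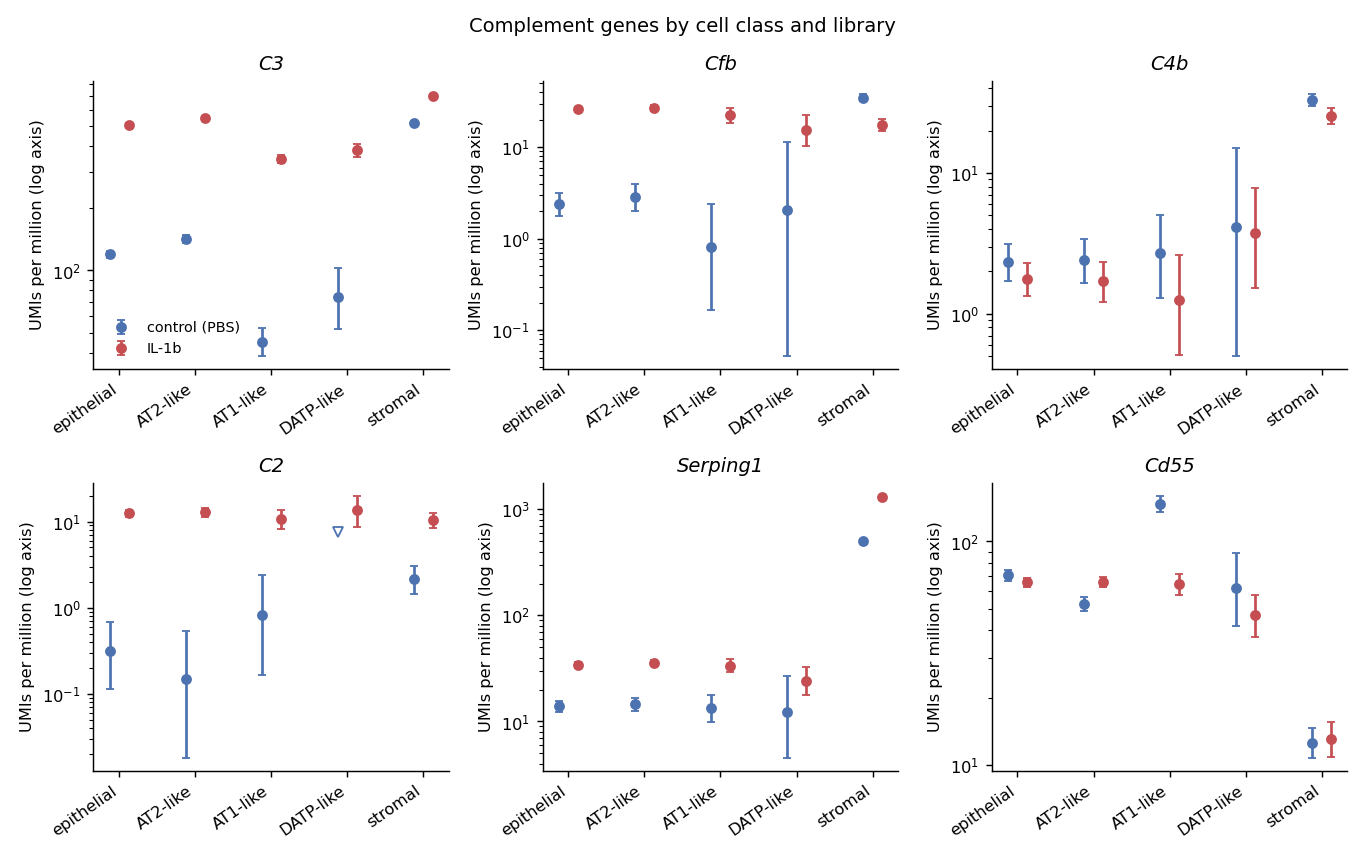
Level of each complement gene (CPM, log axis) in all epithelial cells, in 3 classes of epithelial cells and in stromal cells, in the control (blue) and IL-1β (red) libraries; bars are 95% counting intervals and an open triangle marks the upper limit where the count was 0. The levels of C3, Cfb and C2 were higher in IL-1β in each of the 3 epithelial classes. C2 in AT1-like cells (3 UMIs in control, 59 in IL-1β) had too few UMIs to be counted as higher. The same held in DATP-like cells for C2 (0 and 25 UMIs) and Cfb (1 and 29 UMIs). The DATP-like intervals of Cfb overlapped, at 0.052 to 11.52 CPM in control and 10.45 to 22.41 in IL-1β. Cd55 was highest in AT1-like cells of the control.

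C3 lies on mouse chromosome 17 at 57203970 to 57228136 (build GRCm38, minus strand, protein-coding gene ENSMUSG00000024164). In epithelial cells its level was 119.6 CPM in control (interval 115 to 125, 2295 UMIs) and 506.5 in IL-1β (499 to 514.5, 15760 UMIs). The epithelial ratio was 4.23 (interval 4.05 to 4.43). In stromal cells the level was 515 in control and 696.5 in IL-1β, a ratio of 1.35 (1.31 to 1.40). The stroma was 4.31-fold above the epithelium in the control library, and 1.38-fold above it in the IL-1β library.

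The 3 epithelial classes differed in C3 at baseline. AT2-like cells stood at 142 CPM in control, DATP-like cells at 74.5 and AT1-like cells at 45.1. In IL-1β the same order of classes held, at 547, 381 and 345. The intervals of the DATP-like and AT1-like cells overlapped in both libraries, and AT2-like cells lay above both. The ratio was 3.85 (3.67 to 4.04) in AT2-like cells, 7.64 (6.51 to 9.01) in AT1-like cells and 5.12 (3.67 to 7.38) in DATP-like cells, of which the control held 33. The AT1-like and AT2-like intervals did not overlap, and the class with the lowest control level had the highest ratio. The difference was not tested, with 1 library a condition. The highest epithelial level was in 35 IL-1β cells of a cluster led by Ccl20, A230065H16Rik and Pglyrp1 that was left without a name, at 886 CPM (809 to 969). Cycling cells of the control stood at 105.2 (90.5 to 122) and 14 airway-like cells of the IL-1β library at 580 (494 to 676).

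After thinning every cell to 4000 UMIs, C3 was detected in 33.6% of epithelial cells in control (interval 31.0% to 36.3%) and in 77.2% in IL-1β (75.5% to 78.8%). Without thinning the shares were 66.3% and 93.4%. In AT2-like cells the thinned share went from 40.3% to 81.6%, and in AT1-like cells from 12.5% (8.74% to 17.3%) to 60.4% (55.5% to 65.1%). In stromal cells the thinned shares were 62.2% and 80.8%, beside 85.0% and 97.0% without thinning. The median depth was 13921.5 UMIs in control and 11293 in IL-1β epithelial cells, and 15735 and 14849 in stromal cells. With the median background share of the 7 stromal markers subtracted, 109.6 and 491 CPM of C3 were left in epithelial cells. Within AT2-like cells of the IL-1β library, the thinned C3 count had a median of 2 and a 90th percentile of 5, and its variance was 1.78 times its mean. In stromal cells the variance was 6.80 times the mean in control and 5.53 times in IL-1β, so that C3 was more unevenly spread among stromal cells.

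The promoters of C3 and Cd55 are shown because RefSeq windows (build GRCm38.p6) were at hand for these 2 of the 6 genes. They are a gene that was higher in epithelial cells of the IL-1β library and one whose epithelial level hardly differed. The windows are the 250 bases before the annotated start, chr17:57228137-57228386 for C3 and chr1:130462745-130462994 for Cd55, both on the minus strand and written 5′ to 3′, with motif matches in capitals.
C3: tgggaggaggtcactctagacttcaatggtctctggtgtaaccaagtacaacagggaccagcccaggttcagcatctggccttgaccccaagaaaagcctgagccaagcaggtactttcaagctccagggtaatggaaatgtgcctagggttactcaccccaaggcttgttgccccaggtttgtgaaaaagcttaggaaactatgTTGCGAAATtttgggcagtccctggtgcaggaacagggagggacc
Cd55: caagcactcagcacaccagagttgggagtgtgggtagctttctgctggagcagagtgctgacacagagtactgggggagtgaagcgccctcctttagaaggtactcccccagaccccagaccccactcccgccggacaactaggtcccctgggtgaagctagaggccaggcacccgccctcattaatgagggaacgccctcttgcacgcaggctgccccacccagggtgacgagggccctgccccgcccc
Both strands were searched for the motifs of C/EBP (TTNNGNAAT), STAT (TTCNNNGAA) and NF-kappaB (by name). The AP-1 motif was searched as TGANTCA. The TATA box was searched as TATAAA. The C3 window held 1 match, a C/EBP motif 45 to 37 bases before the start, and the Cd55 window held 0. Of 32851 promoter windows of the same length, 10.2% held the C/EBP motif, 7.02% the STAT, 6.75% the AP-1, 12.4% the TATA box and 3.90% the NF-kappaB motif. A match describes the letters in this window and is not a measured binding site.

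C4b, the gene of mouse complement C4, lies at 34728380 to 34743882 of chromosome 17 (minus strand, ENSMUSG00000073418). It was a stromal transcript in both libraries. Its stromal level was 33.1 CPM in control (30.1 to 36.3) and 25.4 in IL-1β (22.3 to 28.8). The ratio was 0.77 (0.65 to 0.90), on the side of the shift of all stromal genes, and with the median of all genes set to 0 its log2 ratio was -0.06. Stromal cluster S5, with 90 control cells and 0 IL-1β cells, held 197 of the 448 control UMIs of C4b. The part of this cluster in the ratio was not tested. In epithelial cells C4b stood at 2.35 CPM in control (45 UMIs) and 1.77 in IL-1β (55 UMIs), with a ratio of 0.75 (0.50 to 1.14). The epithelial level was 7.08% of the stromal level in control (5.09% to 9.64%) and 6.97% in IL-1β (5.10% to 9.37%), above the 7 stromal markers named above. Whether these few UMIs came from epithelial cells was not tested.

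C2, the protease subunit that C4b binds, lies in the same region at 34862604 to 34898265 (minus strand, ENSMUSG00000024371). In epithelial cells it had 6 UMIs in control, a level of 0.31 CPM (0.11 to 0.68), and 388 UMIs in IL-1β, a level of 12.5 (11.3 to 13.8). The ratio was 39.9, with an interval of 18.1 to 109 that reflects the 6 control UMIs. In stromal cells the level was 2.14 in control (29 UMIs) and 10.4 in IL-1β (98 UMIs), a ratio of 4.84 (3.17 to 7.59). The epithelial and stromal levels in IL-1β differed by less than their counting error, with a ratio of 1.2 (0.96 to 1.52). AT2-like cells had 2 UMIs in control and 292 in IL-1β, AT1-like cells 3 and 59, and DATP-like cells 0 and 25. The count of 0 in DATP-like cells of the control allowed up to 7.63 CPM, beside 13.5 CPM (8.70 to 19.9) in IL-1β. The thinned share of epithelial cells with C2 was 0.078% in control (0.0020% to 0.43%) and 4.88% in IL-1β (4.08% to 5.78%), beside 0.47% and 11.9% without thinning.

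Cfb encodes factor B, the alternative pathway counterpart of C2, and its gene (34856374 to 34862518, minus strand, ENSMUSG00000090231) starts 85 bases past the end of C2. Cfb had 46 UMIs in control epithelial cells, a level of 2.40 CPM (1.76 to 3.20), and 809 UMIs in IL-1β, a level of 26.0 (24.2 to 27.9). The epithelial ratio was 10.8 (8.05 to 14.9). In stromal cells the direction was the opposite, with 34.8 CPM in control (31.7 to 38.1) and 17.4 in IL-1β (14.9 to 20.3). That ratio of 0.501 (0.417 to 0.6) missed the 2-fold threshold, and under 8 of 16 alternatives Cfb was counted as lower. These 8 include the looser 1.5-fold threshold, which a ratio of 0.501 passes in any case. The median of all stromal genes was shifted to the same side, by -0.33 on the log2 scale. The stromal log2 ratio of Cfb was -0.996, and over the alternatives it lay between -1.152 and -0.67. Over the stromal clusters, Cfb ranged from 3.43 to 63.9 CPM in the 6 mostly control ones and from 10.45 to 29.8 in the 3 mostly IL-1β ones. These ranges overlapped. Cluster S4 (106 cells, 85 of them control) held 172 stromal Cfb UMIs, and its part in the ratio was not tested. The kind with more Cfb differed between the libraries, with stroma 14.5-fold above epithelium in control and epithelium 1.49-fold above stroma (1.26 to 1.77) in IL-1β. AT2-like cells went from 2.87 to 27.0 CPM and AT1-like cells from 0.82 (3 UMIs) to 22.4. Cfb was detected in 0.54% of thinned epithelial cells in control (0.22% to 1.12%) and 8.09% in IL-1β (7.07% to 9.21%), and in 3.03% and 19.7% without thinning. In stromal cells the thinned shares were 11.0% (8.88% to 13.4%) and 8.21% (5.90% to 11.0%), whose intervals overlapped.

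The Cfb count is limited by a gene model. Gm20547, a readthrough gene that joins C2 and Cfb on the same strand, shares 79.5% of the exon bases of Cfb and 77.6% of the last 500 in the GENCODE M21 annotation (build GRCm38), which may differ from the annotation of the counts. It shares 42.8% of the exon bases of C2, and 6.2% of the last 500. Gm20547 was listed in the files with 0 UMIs in every class. Reads that lie within the exons of 2 genes are left out by the counting program, so that the level of Cfb is a lower limit while its ratio between libraries rests on the same bases in both. The 8 neighbours of C4b, Cfb and C2 in this part of the major histocompatibility complex that were in the files (Ehmt2, Zbtb12, Nelfe, Skiv2l, Dxo, Stk19, Cyp21a1 and Tnxb) included 0 past 2-fold in any of the 7 comparisons, with 3 to 7 of them measured at 100 UMIs or more. Between the libraries, 6.13% of all genes were at least 2-fold higher and 3.7% lower in epithelial cells, and 3.6% and 10.4% in stromal cells. Beside these shares, a count of 0 among so few genes does not set the neighbours apart. Tnxb missed the minimum in epithelial cells, with 5 UMIs in control and 94 in IL-1β, a ratio of 11.6 (4.79 to 36.5). Its ratio was 23.2 (3.90 to 942.5) in AT1-like cells and 5.85 (1.53 to 49.8) in DATP-like cells, and in control its epithelial level was 0.058 of the stromal level (0.018 to 0.142).

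**Figure D2:**
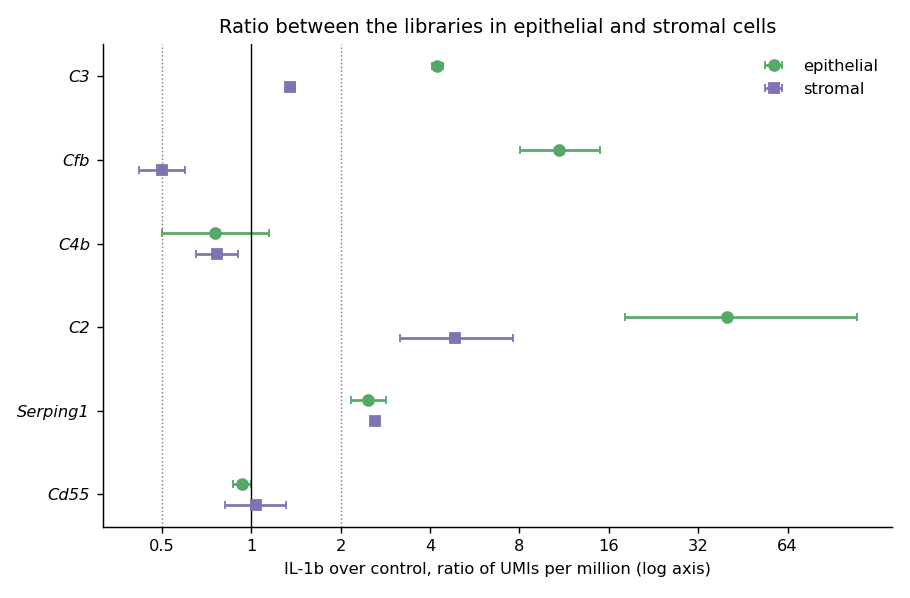
Ratio of the level in IL-1β to that in control (log axis) for each complement gene in epithelial cells (circles) and stromal cells (squares), with 95% counting intervals; dotted lines mark 0.5 and 2. Cfb was above 1 in epithelial and below 1 in stromal cells, and the Serping1 points of both kinds lay side by side at 2.48 and 2.60.

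Serping1, which encodes the C1 inhibitor, lies on chromosome 2 at 84765387 to 84775444 (minus strand, ENSMUSG00000023224). It was a stromal transcript that was higher in IL-1β, with 506.5 CPM in control (495 to 519) and 1318 in IL-1β (1295 to 1342). The ratio was 2.60 (2.53 to 2.68). After thinning, 66.5% of stromal cells held a Serping1 UMI in control (63.1% to 69.7%) and 86.9% in IL-1β (83.6% to 89.8%), beside 88.4% and 95.8% without thinning. The median stromal cell had 1 UMI of the 4000 in control and 4 in IL-1β. In epithelial cells the thinned shares were 5.75% and 13.7%.

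In epithelial cells Serping1 stood at 13.9 CPM in control and 34.3 in IL-1β, a ratio of 2.48 (2.16 to 2.84). These levels were 2.74% of the stromal level in control (2.41% to 3.09%) and 2.60% in IL-1β (2.44% to 2.77%). Both values lay above those of the 7 stromal markers, which ranged from 1.32% to 2.55% and from 1.66% to 2.59%, and their intervals overlapped that of the highest marker in each library (Dcn in control, Vim in IL-1β). How much of the epithelial Serping1 was background was not tested. When, in an alternative chosen after seeing the data, the median share of the 7 stromal markers (1.94% in control, 2.17% in IL-1β) was subtracted, 4.06 and 5.76 CPM were left, a log2 ratio of 0.51 in place of 1.31, and 3 of the 6 genes (C3, Cfb and C2) were counted as higher in epithelial cells. In AT2-like, AT1-like and DATP-like cells of the control, Serping1 stood at 14.5, 13.3 and 12.4 CPM, with overlapping intervals. In IL-1β these levels were 35.7, 33.7 and 24.2. There the DATP-like interval (17.7 to 32.4) lay below the AT2-like interval (33.2 to 38.2), and the AT1-like interval (29.1 to 38.9) overlapped both.

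Cd55 lies on chromosome 1 at 130439027 to 130462744 (minus strand, ENSMUSG00000026399). It was the 1 gene of the 6 with more transcript in epithelium than in stroma in both libraries. Its epithelial level was 70.5 CPM in control (66.8 to 74.4) and 65.6 in IL-1β (62.8 to 68.5), and its stromal level was 12.6 (10.8 to 14.6) and 13.0 (10.8 to 15.5). The ratio between libraries was 0.93 (0.87 to 0.997) in epithelial cells and 1.04 (0.81 to 1.31) in stromal cells. The sign of the small epithelial difference turned, from a log2 ratio of -0.11 to 0.34, when cells with markers of both kinds were left out, and to 0.17 when cells were assigned to a kind one by one. Leaving out mixed cells kept 68 control and 218 IL-1β AT2-like cells, but 0 and 2 AT1-like cells. The part of this loss in the turn was not tested. The level in stromal cells was 17.8% of the epithelial level in control and 19.8% in IL-1β. The median of the 9 AT2 markers was 4.26% and 7.18%, and that of 6 epithelial markers 5.53% and 5.89%. Of all 15 markers, only Etv5 (20.6% and 24.7%) stood above Cd55. With the median background subtracted, 9.32 and 8.38 CPM of Cd55 were left in stromal cells.

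The nearly level epithelial total of Cd55 held opposite differences among its classes. AT1-like cells had 147 CPM in control (135 to 160) and 64.2 in IL-1β (57.7 to 71.2), a ratio of 0.44 (0.38 to 0.50). AT2-like cells had 52.5 in control (48.7 to 56.5) and 65.7 in IL-1β (62.4 to 69.1), a ratio of 1.25 (1.14 to 1.37). DATP-like cells stood at 62.0 and 46.8, with a ratio of 0.75 (0.49 to 1.18). Cycling control cells had 47.2 CPM, and the unnamed IL-1β cluster led by Ccl20 had 149.6 (119 to 186), near the AT1-like cells of the control. AT1-like cells were 41.2% Cd55-positive after thinning in control (35.1% to 47.5%) and 21.5% in IL-1β (17.7% to 25.7%), beside 69.0% and 50% without thinning. Stromal cells were 4.92% and 3.79% positive after thinning. The summed level of 10 AT1 markers in the AT1-like cells was 19320 CPM in control and 11040 in IL-1β. Ager held most of this sum, at 12240 and 6832. All 10 were lower in IL-1β, from Spock2 at 221 and 36.4 to Pdpn at 319.5 and 276. The part of these markers in the Cd55 difference was not tested. When each library was clustered on its own, the AT1-like log2 ratio of Cd55 was -0.71 in place of -1.196, and the gene was no longer counted as lower.

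By class, 4 of 5 complement genes with enough UMIs were at least 2-fold higher in AT2-like cells (C3, Cfb, C2 and Serping1), where 6.76% of all genes were higher and 2.59% lower. In AT1-like cells 3 of 4 were higher (C3, Cfb and Serping1) and Cd55 was lower, where 4.04% of all genes were higher and 2.52% lower. In DATP-like cells C3 was the 1 of 2 genes counted as higher, where 7.45% of all genes were higher and 4.11% lower. When the background was subtracted, Serping1 was no longer among those counted in AT2-like and AT1-like cells. The AT2-like cells of the 2 libraries also differed in markers of state. Of 9 AT2 markers, Etv5 stood at 298 CPM in control and 89.8 in IL-1β, and Abca3 at 525 and 273.5. Only Sftpa1 and Sftpd were higher in IL-1β. The paper describes a primed AT2 state with low Etv5 and Abca3. All 6 primed-state markers used here were higher in IL-1β, with Ptges at 28.65 and 104.8 and Orm1 at 4.37 and 66.1. The part of this difference in the AT2-like ratios was not tested.

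Epithelial and stromal cells were next set against each other within each library. In control, 4 of 5 genes with enough UMIs were at least 2-fold lower in epithelium (C3, Cfb, C4b and Serping1) and Cd55 was higher, by 5.61-fold (4.78 to 6.62). Of 10992 genes, 15% were higher in epithelium and 19.5% were lower. In IL-1β, C4b and Serping1 were lower in epithelium and Cd55 was higher, by 5.04-fold (4.2 to 6.10). Of 11080 genes, 22.4% were higher in epithelium and 12.4% were lower. C3, Cfb and C2 lay within 2-fold between the kinds in IL-1β. When cells were assigned to a kind one by one from their markers, the log2 ratio of Cd55 in control was 0.71 in place of 2.49, and it was no longer counted. Under that setting control AT1-like cells numbered 98 in place of 255, and control stromal cells 1009 in place of 793. The part of this shift in the Cd55 ratio was not tested.

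The share of each gene's UMIs found in epithelial cells combines these levels with the makeup of the libraries, in which epithelial cells held 58.6% of all UMIs in control and 76.7% in IL-1β. The epithelial share of C3 was 24.8% in control (23.9% to 25.7%) and 70.5% in IL-1β (69.9% to 71.1%). For Cfb it was 8.90% (6.59% to 11.7%) and 83.1% (80.6% to 85.4%). For C2 it was 17.1% (6.56% to 33.7%) and 79.8% (76.0% to 83.3%). C4b went from 9.13% to 18.6%, Serping1 from 3.74% to 7.89% and Cd55 from 88.8% to 94.3%. C3, Cfb and C2 thus had most of their UMIs in stromal cells in control and in epithelial cells in IL-1β, while C4b and Serping1 had most of theirs in stromal cells in both.

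**Figure D3:**
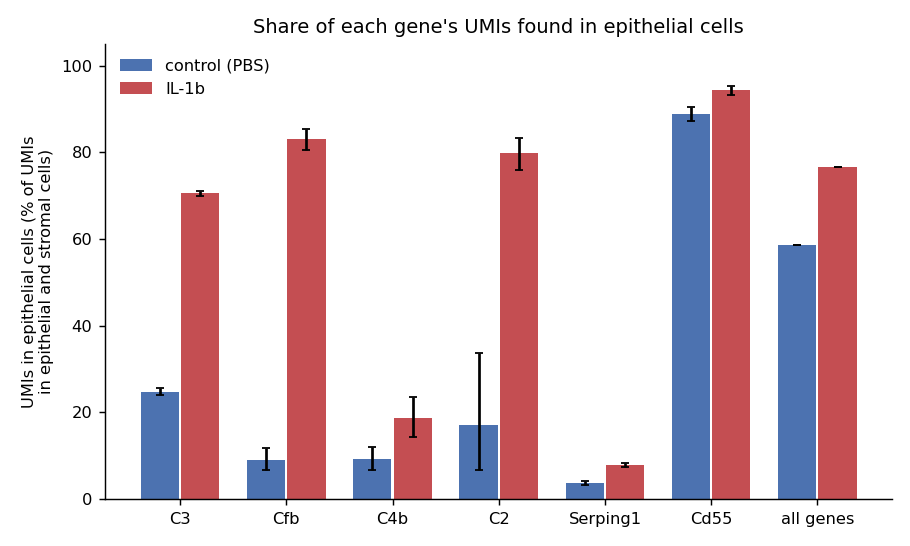
Percent of each complement gene's UMIs that were found in epithelial cells, out of those in epithelial and stromal cells, in control (blue) and IL-1β (red); bars start at 0, error bars are 95% counting intervals, and the last pair is all genes together. C3, Cfb and C2 lay below 25% in control and above 70% in IL-1β.

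The stromal cells were not uniform. Among the control stromal clusters of at least 20 cells, C3 ranged from 27.4 CPM in cluster S9 (29 cells led by Tagln, Acta2 and Cryab) to 1754 in cluster S5 (90 cells led by Srgn, Bglap2 and G0s2). C4b was also highest in S5, at 137 CPM, beside 3.43 in S9. Cfb was highest in cluster S4, at 63.9 CPM (106 cells with Ctgf and Wisp2 among its leading genes, 85 of them control). Serping1 ranged from 109.6 in S9 to 646.5 in S0, with Dio2 and Frmd5 among its leading genes. In the 3 IL-1β clusters, S2 (192 cells led by 9530059O14Rik, Vnn3 and Mmp3) was the highest for C3 (1431), C4b (68.9), C2 (19.3), Cfb (29.8) and Serping1 (1707), and S6 (led by Mmp10, Il11 and Crabp1) was the lowest for these 5. Cluster S8 (39 cells) was led by the epithelial genes Cldn18 and Slc34a2, and without it Cfb was counted as lower in stroma, beside C2 and Serping1 as higher. That removal was chosen after seeing the data.

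In 5 control epithelial clusters C3 ranged from 43.7 to 134.5 CPM and in 6 IL-1β epithelial clusters from 351 to 891.5. Cfb ranged from 0.79 to 2.20 in the control clusters and from 15.7 to 52.3 in the IL-1β clusters. C2 ranged from 0 to 0.79 and from 10.8 to 13.9. For these 3 genes the ranges of the control and the IL-1β clusters did not overlap, and Serping1, at 11.0 to 14.6 and 24.3 to 36.7, was likewise apart. Those of C4b and Cd55 did, with Cd55 at 50.1 to 144.9 in control and 47.0 to 150.0 in IL-1β.

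**Figure D4:**
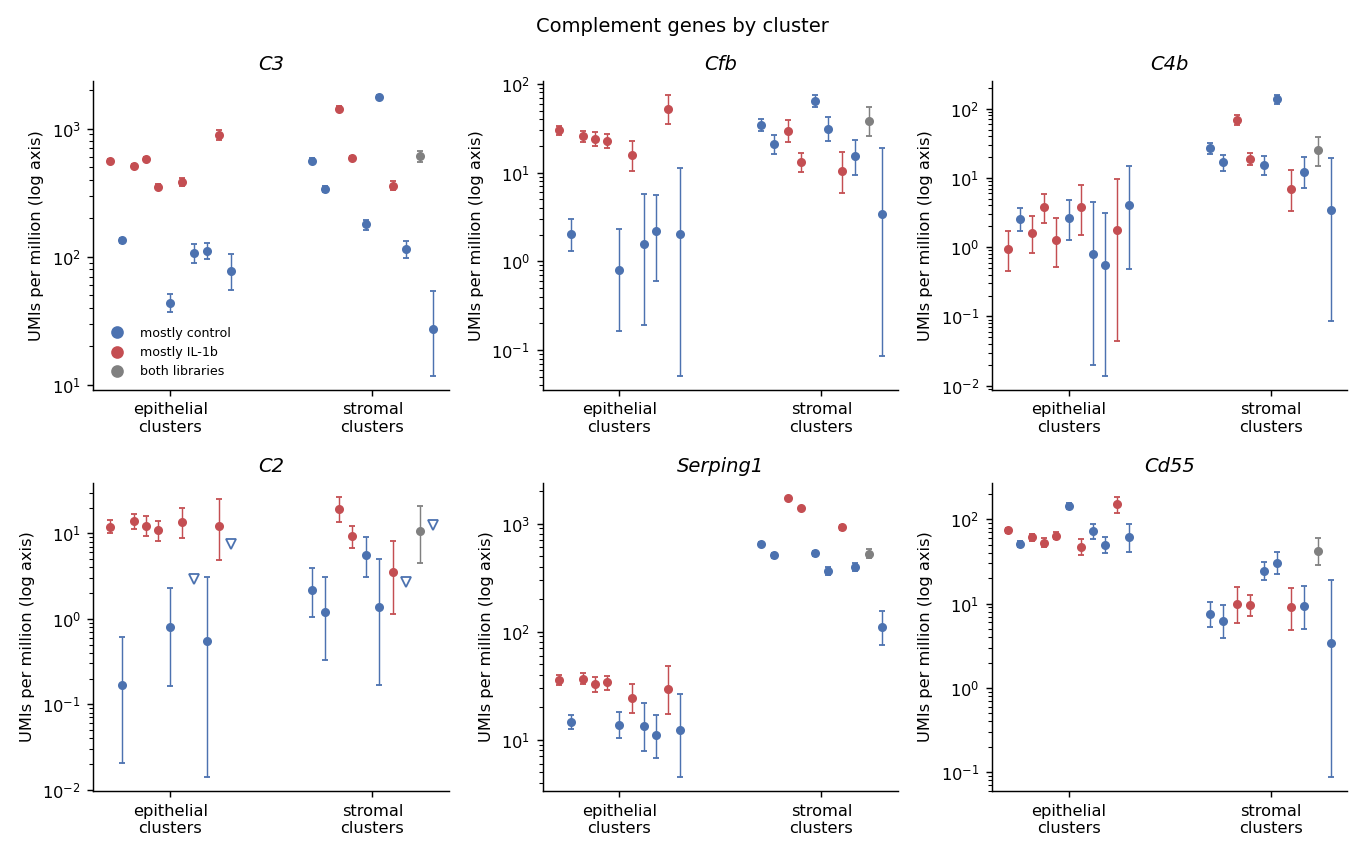
Level of each complement gene (CPM, log axis) in each epithelial and stromal cluster of at least 20 cells, coloured by the library that gave at least 75% of its cells; bars are 95% counting intervals and open triangles mark the upper limit of a count of 0. The levels of the epithelial clusters of the 2 libraries are apart for C3, Cfb and C2, though some intervals of small clusters overlap for Cfb and C2. The stromal clusters of the control span 27.4 to 1754 for C3.

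Over the 21 clusters of at least 20 cells, the complement genes fell into patterns that are given as a description. The clusters share 2 libraries, and they mix epithelial with stromal ones, so that a correlation also holds the difference between the kinds. The Pearson correlation of log2 levels was 0.78 between C3 and Cfb, 0.73 between C3 and C2, 0.72 between Cfb and C2, and 0.83 between C4b and Serping1. Cd55 went against Serping1, at -0.77. Within the control stroma, C4b was highest in S5, where Serping1 stood at 364 CPM, beside 646.5 in S0. In the IL-1β stroma, S2 was the highest for both. In thinned stromal cells of the control, C4b was found in 11.2% of cells with Serping1 and in 10.9% of those without. In IL-1β these shares were 12.35% and 6.45%, and the intervals overlapped in both libraries. Among 6847 other genes, those most like C3 were Mme (0.88), Ptpn2 (0.87) and Sod2 (0.84), and those most like Cfb were Cd44 (0.93), Micall2 (0.88) and Tnfaip2 (0.86). C2 was most like Scgb3a1 (0.91), Reg3g (0.91) and Cxcl2 (0.90). The 14 airway-like cells, too few to be among the 21 clusters, held 8166 of 8456 epithelial Scgb3a1 UMIs in IL-1β and 2279 of 2415 of Reg3g. In AT2-like cells Scgb3a1 stood at 0 CPM in control and 9.78 in IL-1β, and stromal cells at 0 and 9.20. Whether the likeness of C2 to these genes goes beyond the difference between libraries was not tested. C4b was most like Bnc2 (0.93), Bmper (0.92) and Serpina3n (0.92), and Serping1 most like Nid1 (0.98), Gas1 (0.98) and Clmp (0.98). Cd55 was most like Smpdl3a (0.94), Vamp5 (0.93) and Chka (0.93).

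Within single AT2-like cells of the IL-1β library, thinned to 4000 UMIs, Cfb was found in 9.14% of 1576 cells with a C3 UMI (7.76% to 10.7%) and in 4.23% of 355 cells without one (2.38% to 6.87%). For C2 the shares were 5.14% (4.10% to 6.35%) and 4.79% (2.81% to 7.56%), and for Serping1 14.3% and 13.8%. C2 was found in 4.40% of 159 cells with Cfb (1.79% to 8.86%) and in 5.13% of 1772 cells without it. The intervals were apart for the pair of C3 and Cfb in these cells, and overlapped for the other pairs. At about 0.1 UMIs of Cfb and 0.06 of C2 per thinned cell, a difference between pairs was hardly detectable at this depth.

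The rest of the pathway was described from a list of 53 further complement genes, chosen with earlier results of these data known, of which 52 were in the files and C4a was not analysed here. Of all genes in epithelial cells, 6.13% were at least 2-fold higher in IL-1β and 3.7% were lower. On the list, 16 genes had at least 100 UMIs in these cells. Of these 16, 3 were at least 2-fold higher in IL-1β and 3 were lower, beside a median log2 ratio of 0.16. Those higher were Clu (clusterin, a fluid-phase inhibitor of the terminal complex), at 207.5 and 999 CPM, C1ra at 10.0 and 30.1, and C1s1 at 7.66 and 21.9 (the proteases of the C1 complex). C1ra and C1s1 were mainly stromal, and their epithelial level went from 0.052 to 0.132 of the stromal level for C1ra and from 0.030 to 0.071 for C1s1. Those lower were Hc (complement C5), at 395 and 179, Cpn1 (a subunit of the carboxypeptidase that inactivates anaphylatoxins), at 38.5 and 11.2, and C5ar2 (a receptor for C5a), at 9.33 and 1.93. In the same epithelial cells, C3 and Hc lay on opposite sides, with ratios of 4.23 and 0.45 (0.44 to 0.47).

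Of all genes in stromal cells, 3.6% were at least 2-fold higher in IL-1β and 10.4% were lower. Of the 52 listed genes, 10 had at least 100 UMIs in these cells, and 0 were higher in IL-1β and 1 was lower. It was Cfd (factor D, the protease that activates factor B), at 19.2 CPM in control (260 UMIs) and 1 UMI in IL-1β, a ratio of 0.0055 (0.00014 to 0.031). Between the kinds, 15 listed genes had enough UMIs in control. Of these, 6 were at least 2-fold higher in epithelium and 6 lower, beside 15% and 19.5% of all genes. In IL-1β, 7 of 14 were higher and 5 lower, beside 22.4% and 12.4% of all genes. Hc, C6, Cpn1, Cd59a and Susd4 were higher in epithelium in both libraries, and C1ra, C1s1, Colec12 and Csmd1 were among those lower in both. C5ar2 was also higher in epithelium and Cfd also lower in control, and Mbl1 and Clu were also higher in IL-1β. Hc was 18.1-fold (16.1 to 20.4) and 11.8-fold (10.0 to 14.1) above the stroma.

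**Figure D5:**
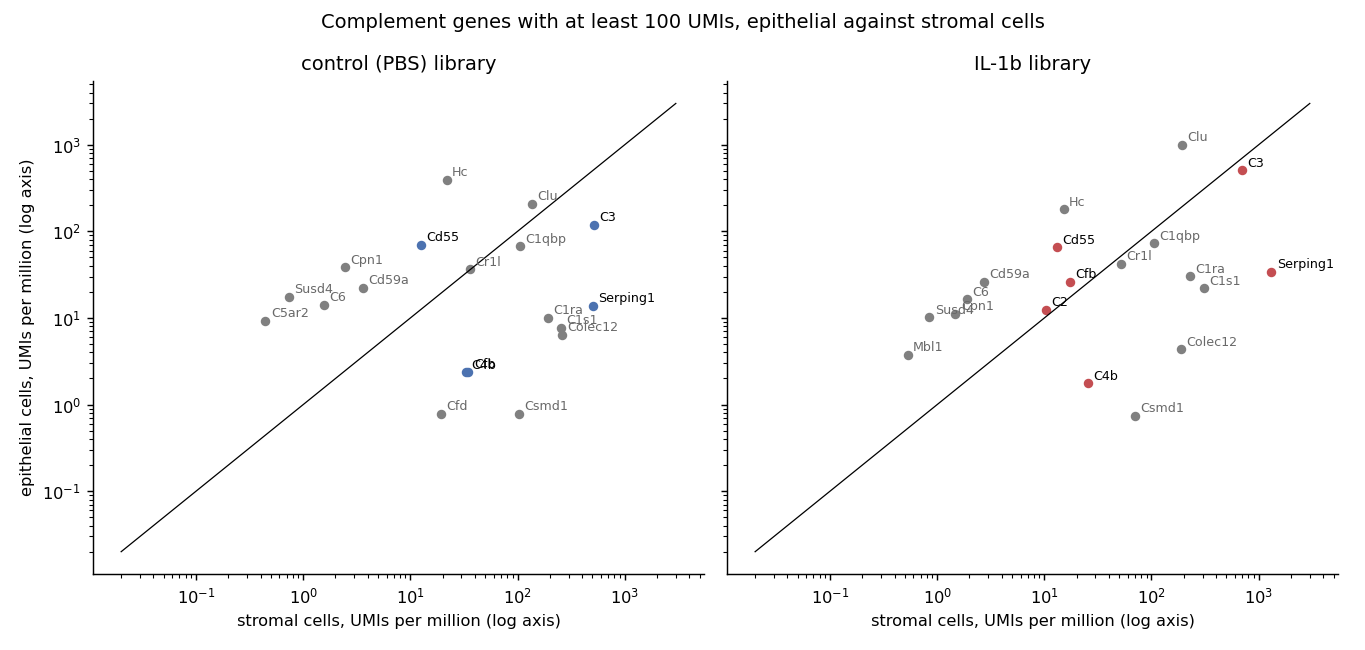
Level of complement genes in epithelial cells (vertical, CPM, log axis) against stromal cells (horizontal, log axis) in the control and the IL-1β library, for genes with at least 100 UMIs; coloured points are the 6 genes described, grey points genes of the wider list, and the line marks equal levels. Cfb lay near the line in IL-1β and at 0.0689 of the stromal level in control, and Serping1 and C4b lay below the line in both.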

How the data were processed

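The deposited values were raw UMI counts per gene and cell, made by the authors with Cell Ranger on GRCm38 from a 3′ kit, with no normalization. Cells with 500 to 7000 genes and over 2000 UMIs were kept (5142 of 5167), and scrublet cutoffs marked 3 of them (0.0583%), so that doublets were in effect not removed. Cells were clustered with scanpy 1.11.5 and leidenalg 0.10.2 (resolution 1, 50 components, 15 neighbours), without the complement genes. Epithelial clusters were named from marker lists by a rule set after the clusters had been seen (the class with the highest mean log2 marker level relative to the other clusters, with at least 3 markers above their mean and no other class leading the top 10 genes). The 6 genes, the wider list and the markers were chosen with earlier results of these data known. Named genes were the members, listed genes past 2-fold, neighbours, and the 3 genes most like each member; some are not reported here. UMIs were summed by class and library. With 1 library per condition there was no test. The calculations were tested on simulated data. Alternatives changed the cell filter, doublets, cell assignment, clustering, scaling, weighting and thresholds. Shares used cells thinned to 4000 UMIs, and their intervals are Clopper-Pearson 95% intervals over the cells of 1 library. They do not cover variation between libraries.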

Additional observations from a re-analysis of the deposited data

Results flagged for a closer look

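Of 24 pairs of cell kinds or classes looked at over the 6 genes, 2 held ratios on opposite sides of 1 with both counting intervals off 1. Cfb was 10.8-fold higher in epithelial cells of the IL-1β library and stood at 0.501 of the control level in stromal cells, a 21.6-fold difference between the ratios. The stromal ratio of Cfb lay on the side of the shift of all stromal genes, and its ranges over the stromal clusters of the 2 libraries overlapped. Cd55 was 1.25-fold higher in AT2-like cells and stood at 0.44 of the control level in AT1-like cells, a 2.87-fold difference between the ratios. Neither difference was tested, because each condition was 1 library.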

How the results depend on the processing

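No paired analysis was possible because each condition was 1 library. Of 91 member counts under 14 other settings of filters, clustering, scaling and thresholds, 87 stayed within 1.5 times. So did 16 of 16 under 3 alternatives chosen after seeing the data (spill subtracted, without cluster S8, without cells with at least 10 C1q UMIs). At counts this small the limit can allow the gain or loss of a member. With spill subtracted Serping1 was no longer counted in epithelial cells, and without S8 Cfb was counted as lower in stroma. Leaving out cells with over 10% of the other kind's markers kept 79 control and 264 IL-1β epithelial cells, and 1 member (C3) was counted in AT2-like cells. With libraries clustered separately, 2 were counted in AT1-like cells. In DATP-like cells 3 were counted with Louvain clustering (C3, Cfb, Serping1), and 3 with a minimum of 20 UMIs (C3, Cfb, C2). Counts over all genes with a minimum of 20 UMIs were 1944 in epithelial, 2397 in stromal, 1807 in AT2-like, 1200 in AT1-like and 1451 in DATP-like cells. With a 1.5-fold threshold they were 2351, 3373, 2274, 1499 and 924, and 5827 between epithelial and stromal cells in IL-1β, beside 1087, 1407, 963, 523, 394 and 3858. The cause was not tested, other than by the looser limits themselves. Between the libraries, 7 of 12 shares by gene and kind had intervals apart, thinned or not. These intervals count the cells of 1 library and do not cover variation between libraries, so that this count is a description. Of 449 member log2 ratios, 385 stayed within their counting interval, 64 lay outside it, and the sign of 0 called values turned. For all barcodes and for mixed cells left out, fewer than 20 AT1-like and DATP-like cells stood on a side, and no value was given. The same held for DATP-like cells with cell-by-cell assignment, resolution 0.5 and seed 1. The class names themselves changed with the settings. With all barcodes, IL-1β AT1-like cells went from 424 to 3, DATP-like cells from 175 to 579 and unnamed cells from 35 to 910. With seed 1, IL-1β AT2-like cells went from 1931 to 977 and unnamed cells from 35 to 735. The ratios by class rest on the names of the main setting.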

Other observations

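Most UMIs of the 3 C1q genes, C3ar1 and C5ar1 were found in 4 cells of the control library. Each of the 4 cells lay in the cycling epithelial cluster, had at least 10 UMIs of C1q and held a UMI of the immune marker Ptprc. They gave 28 of 33 control UMIs of C1qa, 64 of 80 of C1qb, 71 of 77 of C1qc, 20 of 21 of C3ar1 (the receptor for C3a) and 14 of 18 of C5ar1 (the receptor for C5a). All 5 genes had 0 UMIs in the IL-1β library.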
